A study of Rattus norvegicus with 6 samples.

Results

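The genes described here encode enzymes of glycolysis and of lactate metabolism: Hk1, Hk2, Pfkp, Aldoa, Aldoc, Pgk1, Eno1, Pkm, Ldha and Ldhb. They were chosen by gene symbol from the 30452 genes of a rat single-cell count matrix. Of the 10 symbols, 9 matched a row; Pgk1, the symbol of phosphoglycerate kinase 1, did not, and that enzyme was not analysed here. The study dissected hippocampi of male rats, 3 irradiated with 20 Gy to the whole brain and taken 2 months later, and 3 controls. Tissue was digested to single cells, red cells were lysed, dead cells were removed with magnetic beads, and libraries were made with the Chromium 3′ version 3 kit, in which every captured transcript is tagged with the barcode of its droplet and with a random tag (UMI), so that copies made in amplification are counted once. No sorting of cells, strain or age of the rats is named in the sources used here.

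Barcodes carry a suffix, 1 to 6, for the library they came from, and nothing in the sources used here ties a suffix to a labelled sample. The irradiated and control rats were therefore not compared, and the libraries below belong to no group. Libraries held 7479 to 11931 barcodes and 46853113 to 62094407 UMIs each. Of 58078 barcodes, 45393 passed the filters as cells. Of 57663 different barcode sequences, 410 occurred in more than 1 library. Levels are given as CPM, the UMIs of a gene as a share of all UMIs of a cell class, on a scale where 10000 CPM is 1%, with exact Poisson 95% intervals that cover counting error only. RNA of other cells present in the droplets was not removed.

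Glycolysis splits glucose to pyruvate and yields ATP without oxygen, and lactate dehydrogenase converts pyruvate and lactate into each other. Several steps are catalysed by isoenzymes from different genes that tissues use in different proportions. In the brain, astrocytes are known for high glycolytic activity, glycogen stores and lactate release, and microglia and infiltrating leukocytes for raising glycolysis when activated.

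Upstream sequences of 4 genes are shown because their highest levels lay in different cell classes, described below. Aldoc and Ldhb were highest in astrocyte-like cells, Hk2 in microglia-like cells and Ldha in T or NK cell-like cells. The sequences are the 250 bases before the annotated start, 5′ to 3′ on the gene's strand, from RefSeq with the rat build GRCr8. That build is not the one named for the counts. Capitals mark the letters ACGTG and GCGTG, the core of the hypoxia response element bound by hypoxia-inducible factors, and their reverse complements CACGT and CACGC.
Ldha (chr1:106507842-106508091, plus strand): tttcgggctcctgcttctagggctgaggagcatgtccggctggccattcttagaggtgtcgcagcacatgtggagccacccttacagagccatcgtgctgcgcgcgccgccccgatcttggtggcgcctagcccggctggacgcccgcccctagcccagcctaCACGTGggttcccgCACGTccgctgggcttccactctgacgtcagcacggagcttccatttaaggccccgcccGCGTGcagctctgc
Ldhb (chr4:177177409-177177658, minus strand): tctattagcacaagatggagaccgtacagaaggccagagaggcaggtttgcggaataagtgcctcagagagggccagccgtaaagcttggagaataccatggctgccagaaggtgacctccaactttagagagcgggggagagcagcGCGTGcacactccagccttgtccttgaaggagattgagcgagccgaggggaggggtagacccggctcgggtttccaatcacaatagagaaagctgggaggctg
Aldoc (chr10:63715294-63715543, plus strand): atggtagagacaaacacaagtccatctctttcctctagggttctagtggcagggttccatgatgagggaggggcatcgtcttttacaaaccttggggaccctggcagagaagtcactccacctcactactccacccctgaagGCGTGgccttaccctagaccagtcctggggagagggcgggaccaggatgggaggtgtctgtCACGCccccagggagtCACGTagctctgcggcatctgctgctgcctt
Hk2 (chr4:116841276-116841525, minus strand): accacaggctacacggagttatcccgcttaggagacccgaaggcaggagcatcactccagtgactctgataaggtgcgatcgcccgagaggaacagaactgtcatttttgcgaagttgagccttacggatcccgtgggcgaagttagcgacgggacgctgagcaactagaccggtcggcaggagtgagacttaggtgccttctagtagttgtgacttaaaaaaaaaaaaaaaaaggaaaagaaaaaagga
The Ldha window held 3 matches to ACGTG and 1 to GCGTG. Of the ACGTG matches, 2 overlap within 1 copy of CACGTG, a palindrome that is also the E-box read by basic helix-loop-helix factors. The Aldoc window held 1 match to ACGTG and 2 to GCGTG, the Ldhb window 1 to GCGTG alone, and the Hk2 window none to either. Over 33469 windows of the same length in the RefSeq table, 16.6% held ACGTG, 25.9% held GCGTG and 5.59% held CACGTG. The 9 measured genes had 13 windows in all, of which 4 held ACGTG and 6 held GCGTG. These matches describe letters in a window, not binding.

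The cells fell into 12 classes of at least 100 cells, named from marker genes. Astrocyte-like cells numbered 11941 and microglia-like cells 21768. A further 7125 cells formed clusters high in Lyz2, the lysozyme gene of macrophages and monocytes, that passed 5 of 11 border macrophage markers without the lead required for that name, while their microglia markers summed to 15640 CPM, against 30060 CPM in microglia-like cells. Libraries 4, 5 and 6 held 1728, 2968 and 2422 of them. T or NK cell-like cells numbered 912, mature oligodendrocyte-like cells 873, Cd74-high myeloid cells 650, cycling cells 229, oligodendrocyte precursor-like cells 208, neutrophil-like cells 206, endothelial cell-like cells 136, neuroblast-like cells 131 and B cell-like cells 100. All 16 astrocyte markers passed in the largest astrocyte-like cluster, and 12 of 14 microglia markers in the largest microglia-like cluster. The endothelial cell-like cluster also had Hbb-b1 and Hba-a2 among its leading genes, with red blood cell markers summing to 7068 CPM, against 2.30 to 12.02 CPM in the other classes. Neutrophil-like cells were shallow, with a median of 1224 UMIs per cell. Clusters left out of these classes were fibroblast-like (86 cells) or unnamed (910, 74 and 44 cells). No cluster was named as mature neurons, so neuronal glycolysis was not analysed here.

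Astrocyte-like cells carried the highest level of Hk1, Pfkp, Aldoc, Eno1 and Ldhb, which act at steps from glucose phosphorylation to lactate. Hk2 was highest in microglia-like cells, Pkm and Aldoa in neutrophil-like cells, and Ldha in T or NK cell-like cells. The highest class of each of the 9 genes was the same without library 3, which stood apart as described below. For Hk1, Pfkp, Aldoc, Eno1 and Ldhb, every one of the 6 astrocyte-like values by library lay above every library value of every other class. For Hk2, Aldoa, Pkm and Ldha the library values of the highest class overlapped those of others. Many neighbours in the order could not be separated: of 99 pairs of neighbouring classes over the 9 genes, 78 had overlapping counting intervals.

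**Figure D1:**
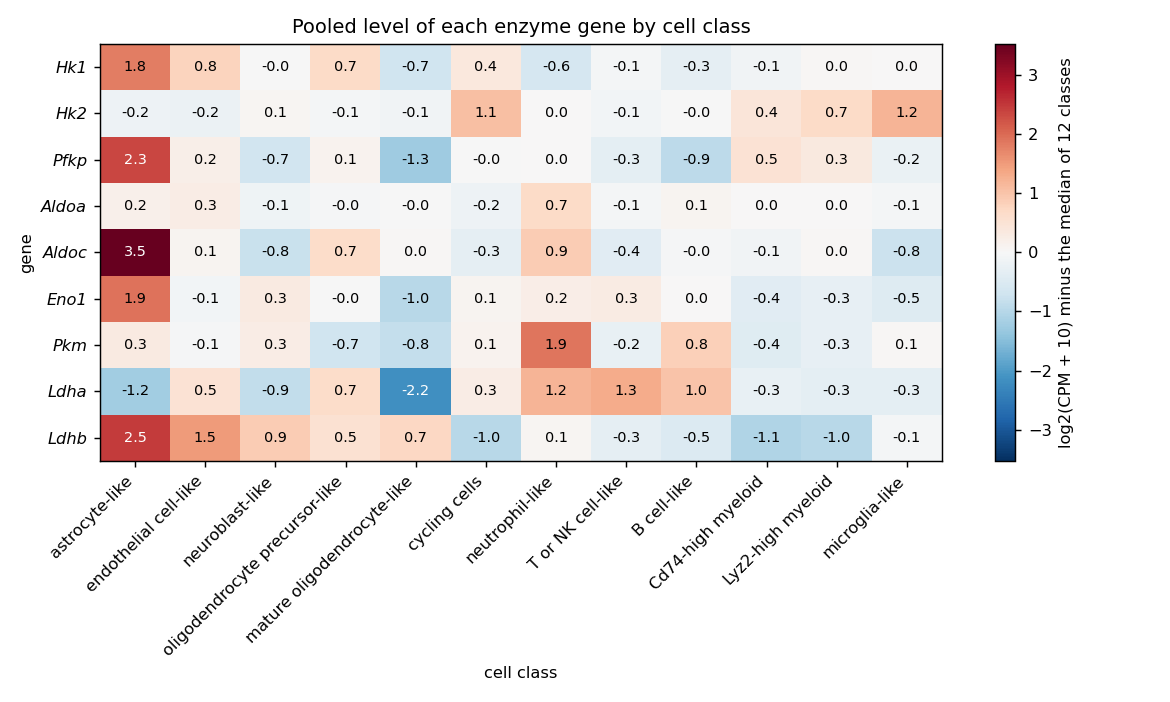
Heat map of the pooled level of each enzyme gene (rows) in 12 cell classes (columns), as log2(CPM + 10) minus the median of the 12 classes; red is above and blue below that median. Aldoc in astrocyte-like cells has the highest value, 3.53, and Ldha in mature oligodendrocyte-like cells the lowest, -2.17.

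Between astrocyte-like and microglia-like cells, 7 of the 9 genes were higher in astrocyte-like cells, where 62.2% of genes were, and 2 were lower. That share is over genes with at least 10 CPM in either class, which Aldoa, counted among the 7, did not reach. Each of the 9 had the same direction in all 6 libraries. By pooled log2 ratio, with 10 CPM added to both sides, 5 of the 9 were at least 2-fold higher (Hk1, Pfkp, Aldoc, Eno1 and Ldhb), where 23.5% of 9712 genes were. Hk2 alone was at least 2-fold lower, where 13.8% of genes were. Of all genes, 51.4% were higher and 29.1% lower in all 6 libraries. The median log2 ratio was 1.79 over the 9 genes and 0.28 over all 9712. Total RNA per cell differs between cell types, so a share of UMIs does not give molecules per cell.

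**Figure D2:**
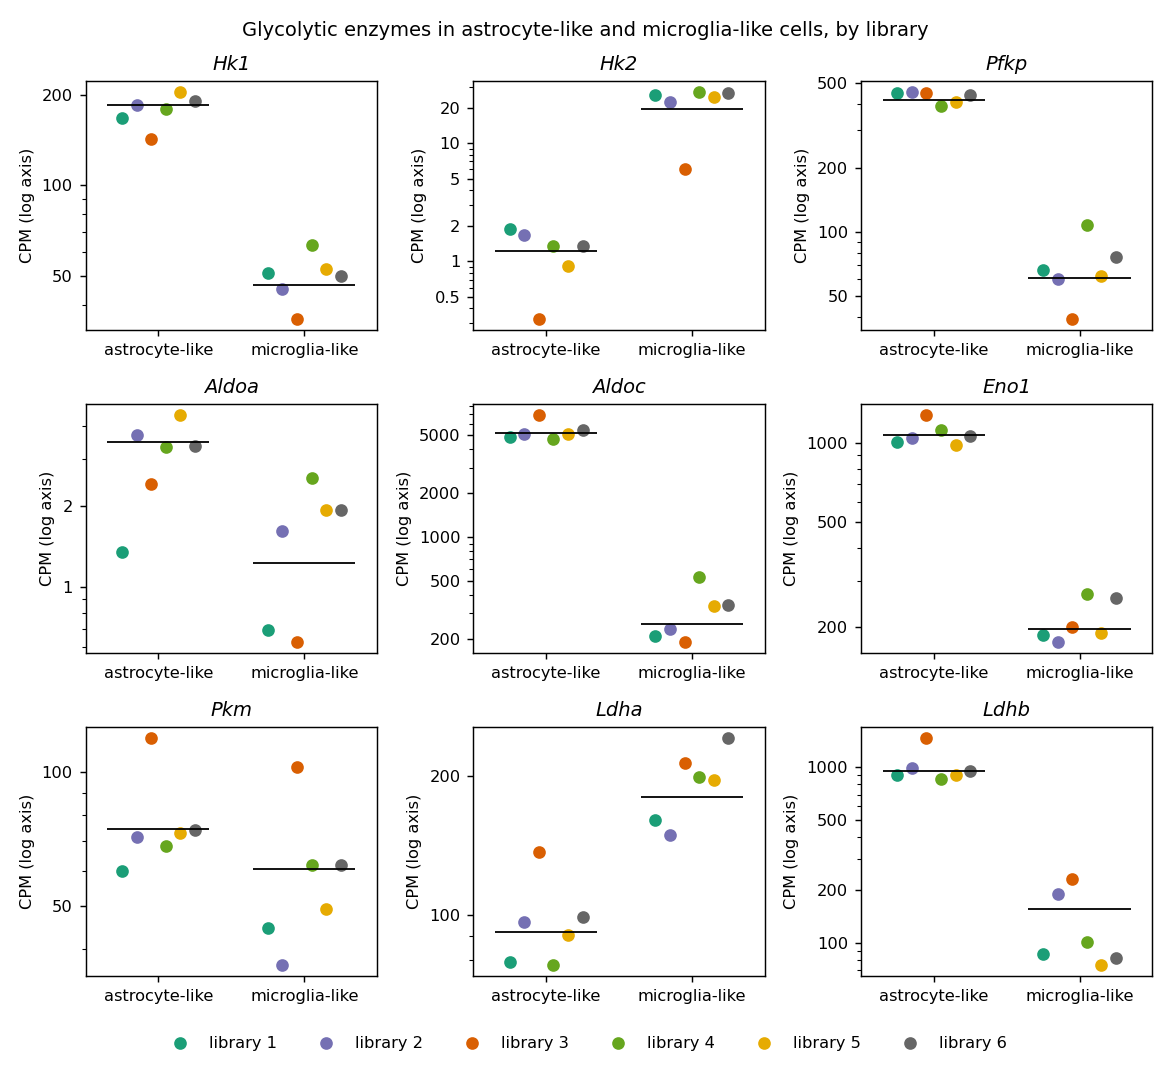
Level of each gene in CPM (log axis, a separate scale per panel) in astrocyte-like and microglia-like cells; points are the 6 libraries and black lines the pooled level. In Hk1, Pfkp, Aldoc, Eno1 and Ldhb all astrocyte-like points lie above all microglia-like points, in Hk2 and Ldha all lie below them, and in Aldoa and Pkm the points overlap.

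The hexokinases phosphorylate glucose and so trap it in the cell. Hk1, the constitutive form of brain that binds mitochondria, ranged from 142 to 204 CPM with a median of 182 CPM over the libraries in astrocyte-like cells, against 35.9 to 63.3 CPM with a median of 50.6 CPM in microglia-like cells. The ranges did not overlap. Pooled, it was 184.7 CPM (181.8 to 187.8) in astrocyte-like and 46.5 CPM (45.3 to 47.8) in microglia-like cells, a 3.97-fold difference. Endothelial cell-like cells came next at 86.2 CPM and oligodendrocyte precursor-like cells at 79.8 CPM, with overlapping intervals, and mature oligodendrocyte-like cells were lowest at 24.1 CPM.

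Hk2, the inducible form of muscle, fat and activated immune cells, ran the other way. It ranged from 0.325 to 1.89 CPM with a median of 1.35 CPM in astrocyte-like cells, against 6.09 to 26.9 CPM with a median of 25.1 CPM in microglia-like cells. The low microglia-like value was that of library 3, and the other 5 lay between 22.3 and 26.9 CPM. Pooled, Hk2 had 97 UMIs, or 1.23 CPM (0.995 to 1.497), in astrocyte-like cells and 2312 UMIs, or 19.5 CPM (18.7 to 20.3), in microglia-like cells, 0.0630 times as much in the astrocyte-like. The log2 ratio was -1.39, and -0.64 in library 3. Cycling cells, which carried 9 of 14 microglia markers, followed at 16.7 CPM with an overlapping interval, Lyz2-high myeloid cells at 10.5 CPM and Cd74-high myeloid cells at 7.25 CPM, while in the other 8 classes Hk2 was between 1.01 and 3.44 CPM. Several of those 8 values rest on 1 to 5 UMIs, and the interval of neutrophil-like cells, with 1 UMI, reaches 16.8 CPM. Its share of Hk1 plus Hk2 UMIs was 0.660% in astrocyte-like cells (exact binomial interval 0.536 to 0.804%) and 29.5% in microglia-like cells (28.5 to 30.6%). By library that share was 0.228 to 1.12% in astrocyte-like cells and 14.5 to 34.6% in microglia-like cells, 14.5% being library 3. A share of UMIs compares classes, not the amounts of the enzymes, since 3′ counts of different genes are not captured equally.

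Pfkp encodes the platelet type of phosphofructokinase, which catalyses the committed step of glycolysis. It ranged from 388 to 452 CPM with a median of 442 CPM in astrocyte-like cells, against 39.0 to 107 CPM with a median of 64.3 CPM in microglia-like cells. The astrocyte-like values were close to each other, the highest being 1.16 times the lowest, while the microglia-like values spread 2.75-fold. Pooled, the levels were 418 and 60.96 CPM in astrocyte-like and microglia-like cells, a 6.85-fold difference. Cd74-high myeloid cells at 108.8 CPM and Lyz2-high myeloid cells at 96.8 CPM came next. Pfkm, the muscle type, was 399 CPM in astrocyte-like and 22.2 CPM in microglia-like cells. Among the UMIs of Pfkp, Pfkm and Pfkl, the liver type, Pfkp made up 48.6% in astrocyte-like and 45.3% in microglia-like cells, and 62.4% in Cd74-high myeloid cells.

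The aldolases split fructose bisphosphate into 3-carbon sugars, and Aldoc is the brain form. Aldoc ranged from 4730 to 6858 CPM with a median of 5061 CPM over the libraries in astrocyte-like cells, against 189.5 to 533 CPM with a median of 285 CPM in microglia-like cells. It was the gene furthest apart, 5151 CPM (5135 to 5167) in astrocyte-like and 253 CPM (250.3 to 256) in microglia-like cells, a 20.3-fold difference. With every cell thinned to 1500 UMIs, 99.1% of 10199 astrocyte-like and 30.9% of 21110 microglia-like cells had an Aldoc UMI (99.3% and 65.9% without thinning, at median depths of 6067 and 4889 UMIs). Thinning left out 1742 astrocyte-like and 658 microglia-like cells. In each library the microglia-like level of Aldoc, 2.76 to 11.3% of the astrocyte-like level, fell within the range of the same ratio for 16 astrocyte markers, whose median was 2.19 to 7.99%. Library 3 was lowest and library 4 highest for both. On this measure Aldoc in microglia-like cells did not stand outside the astrocyte markers in any of the 6 libraries.

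**Figure D3:**
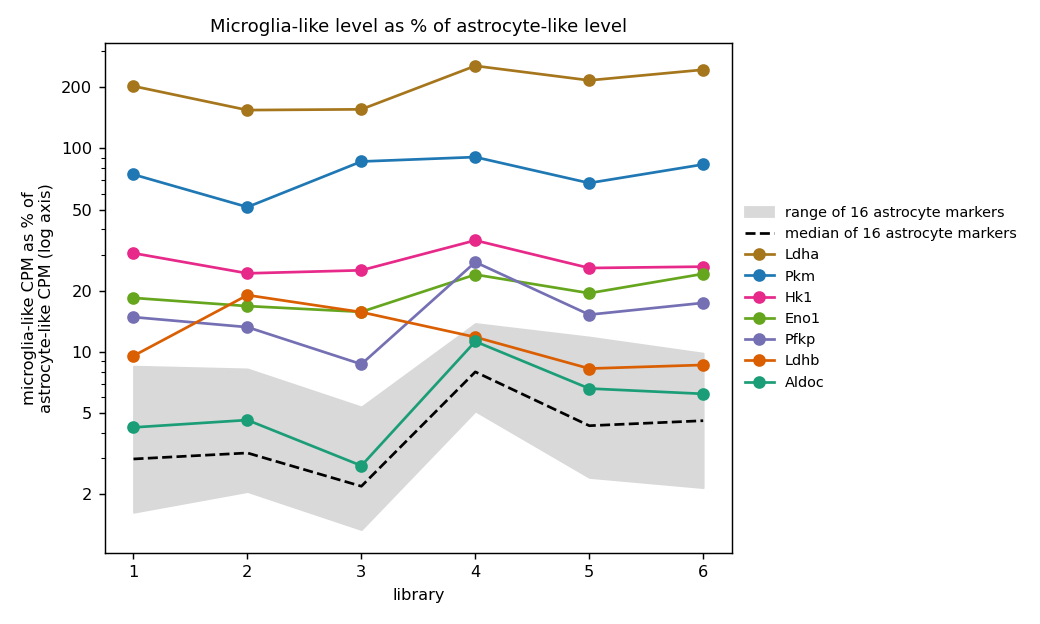
Level in microglia-like cells as a percent of the level in astrocyte-like cells of the same library (log axis) for 7 enzyme genes; the grey band is the range and the dashed line the median of 16 astrocyte marker genes. Aldoc lies inside the band in all 6 libraries and Ldhb in 3, while Hk1, Pfkp, Eno1, Pkm and Ldha lie above it in all 6.

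All the other genes except Ldhb exceeded every one of the 16 markers in all 6 libraries on that measure. Hk1 stood at 24.4 to 35.4% of the astrocyte-like level, Eno1 at 15.8 to 24.2% and Pfkp at 8.72 to 27.6%. Ldhb, at 8.30 to 19.0%, exceeded every marker in libraries 1, 2 and 3 and was within their range in libraries 4, 5 and 6. Outside astrocyte-like cells, Aldoc was highest in neutrophil-like cells at 827 CPM, where the summed astrocyte markers were also highest, at 3910 CPM, against 1241 to 2535 CPM in the other non-astrocyte classes. Oligodendrocyte precursor-like cells had 697 CPM of Aldoc and 2535 CPM of the markers when pooled, but these rest on library 4, with 1128 and 4380 CPM, while the other 3 libraries with enough cells had 332 to 547 CPM of Aldoc and 946 to 1665 CPM of the markers. In neutrophil-like cells Aldoc was 436, 607, 1049 and 1713 CPM in libraries 2 to 5, where the markers summed to 1570, 1849, 6006 and 10540 CPM. The part of RNA from astrocytes in the Aldoc values of other classes was not tested.

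Aldoa, the ubiquitous aldolase of muscle and most tissues, had 539 UMIs in all kept cells. It was 3.48 CPM (3.08 to 3.92) in astrocyte-like and 1.23 CPM (1.04 to 1.45) in microglia-like cells, with library ranges of 1.35 to 4.37 and 0.624 to 2.56 CPM that overlap. None of the 11 neighbouring pairs in its order of classes could be separated, and its highest value, 9.02 CPM in neutrophil-like cells, rested on 3 UMIs. Such a low count for a gene of most tissues is uncertain, because reads that match near-identical copies can be lost or split in counting; Aldoart2, an aldolase A copy, had 10 UMIs. The Aldoc share of Aldoa plus Aldoc UMIs was 99.9% in astrocyte-like and 99.5% in microglia-like cells, and is as uncertain as Aldoa.

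Eno1 encodes alpha-enolase, which makes phosphoenolpyruvate. It ranged from 982 to 1275 CPM with a median of 1056 CPM in astrocyte-like cells, against 176 to 268.5 CPM with a median of 196 CPM in microglia-like cells. The groups were far apart, with pooled levels of 1072 and 198 CPM, 5.42-fold. Neuroblast-like cells came next at 348 CPM, T or NK cell-like cells had 338 CPM, and mature oligodendrocyte-like cells were lowest at 135 CPM.

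Pkm encodes pyruvate kinase M, which forms pyruvate and ATP and whose M1 and M2 forms cannot be told apart in these counts. It differed least among the well-counted genes between the main classes, ranging from 59.9 to 119 CPM with a median of 72.1 CPM in astrocyte-like cells, against 36.8 to 102.9 CPM with a median of 55.5 CPM in microglia-like cells. The ranges overlapped, though within each library the astrocyte-like value was the higher. Pooled, it was 74.4 CPM (72.5 to 76.3) in astrocyte-like and 60.6 CPM (59.2 to 62.0) in microglia-like cells. Neutrophil-like cells had 240.5 CPM (190.7 to 299) from 80 UMIs, and 144 CPM (98.4 to 203) without library 3, where the next class was astrocyte-like cells at 70.6 CPM. Library 3 alone had 435 CPM, and the other 3 libraries with enough neutrophil-like cells had 150 to 164 CPM. Dissociation genes, immediate early genes induced when tissue is digested, summed to 45240 CPM in neutrophil-like cells, the highest of the 12 classes, and to 1070 CPM in astrocyte-like cells, the lowest; their part in the values was not tested. B cell-like cells, 47 of whose 100 cells came from library 3, had 111 CPM (80.3 to 151) from 42 UMIs, and 41.3 CPM (18.9 to 78.4) from 9 UMIs without library 3.

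Ldha and Ldhb encode the M and H subunits of lactate dehydrogenase; tetramers rich in M are known for forming lactate and those rich in H for oxidising it. Ldha ranged from 77.9 to 136.9 CPM with a median of 93.4 CPM in astrocyte-like cells, against 149 to 241 CPM with a median of 197 CPM in microglia-like cells. All astrocyte-like values were below all microglia-like ones. Pooled, Ldha was 91.8 CPM (89.7 to 94.0) and 179.9 CPM (177.5 to 182) in astrocyte-like and microglia-like cells, a log2 ratio of -0.90. T or NK, neutrophil and B cell-like cells stood above both when pooled: Ldha was 579 CPM (558 to 602) in T or NK cell-like cells, 535 CPM (459 to 620) in neutrophil-like cells and 472 CPM (405 to 547) in B cell-like cells. Without library 3, T or NK cell-like cells had 450 CPM (426.5 to 474) and neutrophil-like cells 364 CPM (289 to 453), close to the 367 CPM of oligodendrocyte precursor-like cells. B cell-like cells had 243 CPM (182 to 318) from 53 UMIs without library 3, below endothelial cell-like cells at 305 CPM. Cd74-high and Lyz2-high myeloid cells, at 188.9 and 179.2 CPM, were near microglia-like cells. Mature oligodendrocyte-like cells were lowest at 43.2 CPM. With cells thinned to 1500 UMIs, 52.1% of T or NK cell-like cells had an Ldha UMI, against 12.6% of astrocyte-like and 21.8% of microglia-like cells. Without thinning the shares were 82.4%, 34.5% and 53.1% in the same order. Ldhal6b, a related lactate dehydrogenase gene that could share reads with Ldha, had 4683 UMIs beside 42147 of Ldha, and its level was between 11.2 and 21.9 CPM in the classes examined.

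Between astrocyte-like and microglia-like cells Ldhb ran opposite to Ldha. It ranged from 857 to 1467 CPM with a median of 926 CPM in astrocyte-like cells, against 74.7 to 230.2 CPM with a median of 93.9 CPM in microglia-like cells. Every astrocyte-like value was above every microglia-like value. Pooled, the levels were 952 CPM (945 to 959) and 155 CPM (152 to 157) in astrocyte-like and microglia-like cells, 6.16-fold. Endothelial cell-like cells followed at 487.5 CPM, where haemoglobin genes were also high, then neuroblast-like cells at 312 CPM and mature oligodendrocyte-like cells at 280.3 CPM. Lyz2-high and Cd74-high myeloid cells and cycling cells had 74.1 to 78.5 CPM.

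Pooled, the Ldhb share of Ldha plus Ldhb UMIs was highest in astrocyte-like cells, 91.2% (exact binomial interval 91.01 to 91.4%). Mature oligodendrocyte-like cells came next with 86.6% and neuroblast-like cells with 71.8%. By library the mature oligodendrocyte-like share ran from 82.7 to 94.5%, a range that spans the astrocyte-like one. The order of astrocyte-like and mature oligodendrocyte-like cells thus differed between libraries. Cluster 29, 31 of the mature oligodendrocyte-like cells, also passed 12 microglia markers. It had 205 CPM of Ldha and 73.1 CPM of Ldhb, against 36.4 and 289 CPM in cluster 13, which held the rest. Its cells came from libraries 2, 3 and 5 (8, 3 and 20 cells), where the class share was 85.2, 87.3 and 82.7%. In libraries 1, 4 and 6, which held none of them, the class share was 92.5, 94.5 and 90.7%. The part of cluster 29 in these shares was not tested. The pooled share was 59.5% in endothelial cell-like and 46.2% in microglia-like cells (45.7 to 46.7%). It was 18.4 to 30.5% in T or NK, B, neutrophil, cycling, Cd74-high and Lyz2-high cells. Oligodendrocyte precursor-like cells, at 40.03%, lay below microglia-like cells when pooled, but the order differed between libraries. In libraries 1, 2, 4 and 5 their share was 39.75, 22.8, 46.6 and 27.4%, against 34.99, 55.9, 33.8 and 27.7% in microglia-like cells. In astrocyte-like cells the share hardly moved, 90.6 to 91.9% over the 6 libraries. In microglia-like cells it was 34.99%, 55.9%, 51.9%, 33.8%, 27.7% and 25.4% from library 1 to 6. Libraries 2 and 3 were thus higher than the other 4, beyond counting intervals, and they hold 6592 and 7150 of the 21768 microglia-like cells. The astrocyte-like minus microglia-like difference was 44.98 percentage points pooled and 57.4 points as the median of the differences within libraries.

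**Figure D4:**
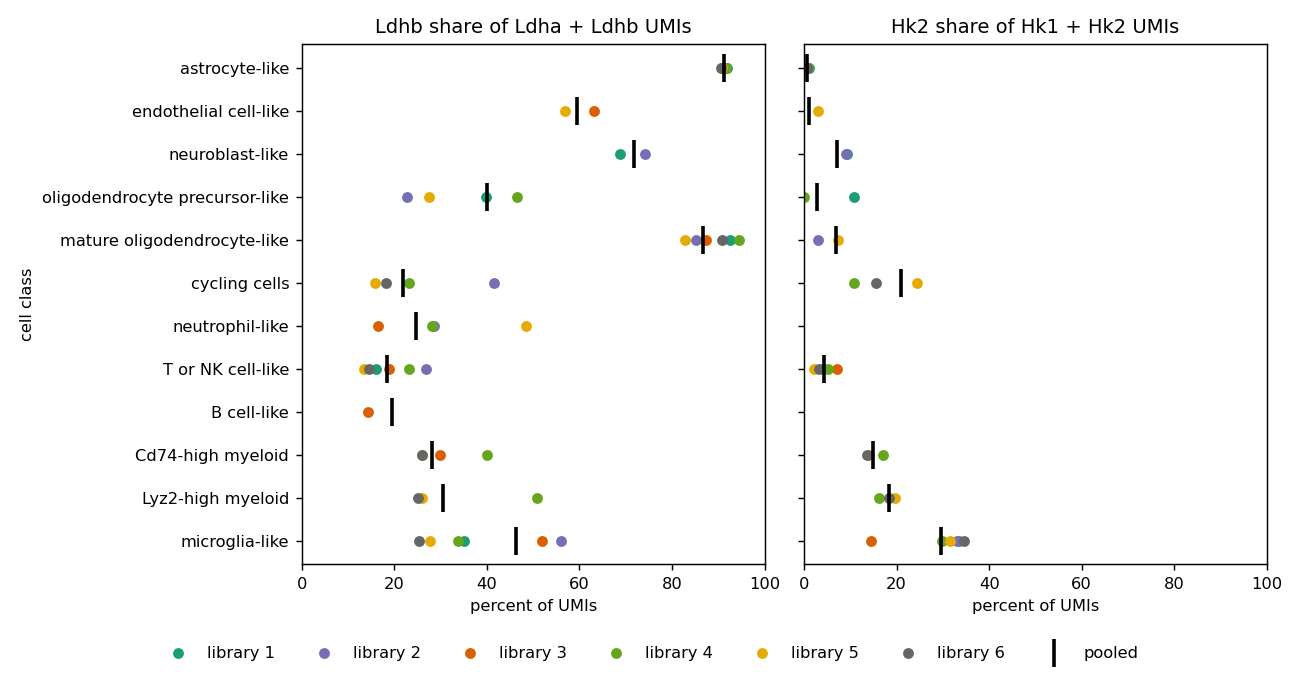
Ldhb share of Ldha plus Ldhb UMIs (left) and Hk2 share of Hk1 plus Hk2 UMIs (right) in each cell class; points are libraries with enough cells and counts and black bars the pooled share. The astrocyte-like points for Ldhb lie together at 90.6 to 91.9%, while the microglia-like points spread from 25.4 to 55.9%.

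Lyz2-high myeloid cells were set against microglia-like cells, since both are myeloid. Of the 9 genes, 0 were at least 2-fold higher and 0 at least 2-fold lower, where 5.34% and 5.23% of 8340 genes were. Pooled, 5 of the 9 were higher, where 52.3% of genes were. Aldoa, counted among the 5, lay below the 10 CPM required of the genes behind that share. The median log2 ratio was 0.015 over the 9 genes and 0.021 over all genes. Pooled values mix libraries here, since Lyz2-high cells come from libraries 4 to 6 and most microglia-like cells from libraries 1 to 3. Within libraries 4, 5 and 6, Hk2 was 11.3, 10.8 and 9.95 CPM in Lyz2-high cells, against 26.9, 24.4 and 26.5 CPM in microglia-like cells. Hk2 was thus lower in Lyz2-high cells in each of these libraries, as were Hk1, Pkm and Ldha, where 40.6% of genes were. Aldoc was higher in all 3, where 29.4% of genes were, at 705, 363 and 407 CPM in Lyz2-high cells, against 533, 335 and 338.5 CPM in microglia-like cells. Ldhb was 0.508 times the microglia-like level when pooled, but its log2 ratio within the 3 libraries ran from -0.31 to 0.29, so it had no shared direction there. In library 4 the classes differed in Ldhb share, 50.8% in Lyz2-high and 33.8% in microglia-like cells. In libraries 5 and 6 the Lyz2-high share was 25.9 and 25.1%, against 27.7 and 25.4% in microglia-like cells. Astrocyte markers summed to 3087, 1601 and 1680 CPM in Lyz2-high cells of libraries 4, 5 and 6, and to 2616, 1866 and 1750 CPM in microglia-like cells. The part of RNA from astrocytes in these Ldhb values was not tested.

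Library 3 stood apart for these genes in several classes at once. In the 4 classes with enough cells in all 6 libraries (astrocyte-like, mature oligodendrocyte-like, T or NK cell-like and microglia-like), library 3 had the highest Pkm and the highest Ldhb in 4 of 4 and the highest Ldha in 3 of 4. It had the lowest Hk1 in 4 of 4, the lowest Pfkp in 3 of 4, and the lowest Hk2 in 3 of 4, tied with library 6 at 0 UMIs in mature oligodendrocyte-like cells. Some of these lows were near ties with overlapping counting intervals. In T or NK cell-like cells Hk1 was 34.95 CPM and Pfkp 41.5 CPM, against 35.3 and 43.5 CPM in library 1. In mature oligodendrocyte-like cells Pfkp was 17.85 CPM, against 18.2 CPM in library 2. Pkm was 119 CPM in its astrocyte-like cells, where the other 5 libraries had 59.9 to 74.0 CPM, and 102.9 CPM in its microglia-like cells, where the others had 36.8 to 61.8 CPM. Ldhb was 1467 CPM in its astrocyte-like cells, where the others had 857 to 993 CPM. Ldha was 849 CPM in its T or NK cell-like cells, where the others had 403 to 485 CPM. Ldha and Ldhb were both high in the astrocyte-like cells of library 3, and the Ldhb share there, 91.5%, lay within the range of the other libraries. Its kept cells were the shallowest, with a median of 4182 UMIs against 4942 to 6486 UMIs in the others, and had the lowest median mitochondrial share, 4.23%. Split by class, that share was lowest only for its T or NK cell-like (4.9%) and microglia-like cells (3.78%). For astrocyte-like cells library 3 had 12.5%, within the 10.9 to 15.7% of the others. For mature oligodendrocyte-like cells it had 11.7%, within their 9.86 to 14.3%. Dissociation genes summed to 28800 CPM in its microglia-like cells and 8749 to 17010 CPM in the others, but in T or NK cell-like cells its 20650 CPM lay within the 14500 to 22270 CPM of the others. The part of these in the values was not tested, and which rats the library holds is not known. Highest and lowest libraries were not counted for other genes, so the counts above do not set the enzyme genes apart from others.

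**Figure D5:**
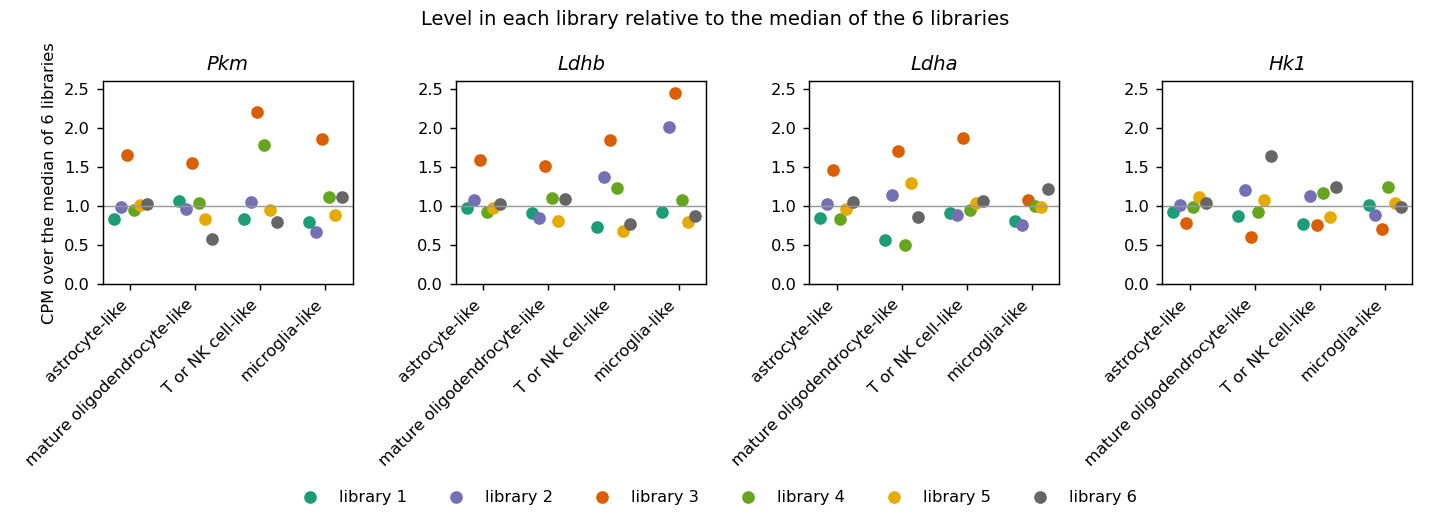
Level of Pkm, Ldhb, Ldha and Hk1 in each library relative to the median of the 6 libraries, in 4 cell classes; the grey line marks 1. Library 3 is the highest point for Pkm and Ldhb in all 4 classes and for Ldha in all but microglia-like cells, and the lowest for Hk1 in all 4.

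Microglia-like cells of library 3 formed clusters of their own. Cluster 4, with 3725 cells, had 6.83 CPM of Hk2, 106 CPM of Pkm and 249.5 CPM of Ldhb, and cluster 6, with 3385 cells, had 5.53, 99.4 and 211 CPM. The counting intervals of these clusters overlapped for Hk2 and Pkm but not for Ldhb. Their dissociation genes summed to 13890 CPM in cluster 4 and 42340 CPM in cluster 6. Clusters 1 and 2, mainly from libraries 1 and 2, had 25.4 and 23.7 CPM of Hk2, 39.9 and 40.8 CPM of Pkm and 135 and 133 CPM of Ldhb. Cluster 5, mainly from libraries 4 and 5, had 25.4 CPM of Hk2 and the highest Aldoc among microglia-like clusters, 451 CPM.

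The glycolytic genes were kept out of the clustering. Astrocyte-like clusters differed in the level of the enzyme genes. Cluster 9, with 1468 cells from all 6 libraries, had 2664 CPM of Aldoc, 607 CPM of Eno1, 505 CPM of Ldhb and 318 CPM of Pfkp, against 5164, 1079, 933 and 428 CPM in cluster 0, which held 6111 cells. In each of the 5 libraries where both could be measured, cluster 9 was the lower for all of these 4 genes, and for Hk1 and Pkm. Ldha was lower there in all but library 1, and Hk2 and Aldoa rested on 11 UMIs each in cluster 9. The share of all genes lower in cluster 9 was not counted, so these values do not set the enzyme genes apart from others. Aldoc in cluster 9 was 2117 to 3149 CPM over the 6 libraries, and 4928 to 5548 CPM over the 5 libraries of cluster 0. Cells of cluster 9 had a median of 3258 UMIs, against 9397 in cluster 0, and a median mitochondrial share of 14.1%, against 11.7%. Cluster 8, the shallowest with a median of 1228 UMIs, had 6362 CPM of Aldoc and 1342 CPM of Eno1. Clusters 10 and 11 came almost wholly from libraries 3 and 4, with 6839 and 4593 CPM of Aldoc.

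Other genes of the pathway and its neighbours were counted in the same way. Single values are given for astrocyte-like and microglia-like cells, and for some genes another class was higher. Relative to the median of the 12 classes, 7 of the 9 enzyme genes were higher in astrocyte-like cells (median log2 ratio 1.80), where 59.5% of 12800 genes were (median 0.06). Those 12800 genes had at least 10 CPM in any class, which Aldoa, counted among the 7, did not reach. The same 59.5% of genes is the background of each list count for astrocyte-like cells below. Of the 16 other glycolytic genes measured, 11 were higher (median 0.09). Tpi1, triose phosphate isomerase, was 309 CPM in astrocyte-like and 72.9 CPM in microglia-like cells, and Gapdh, the next enzyme, 932 and 455 CPM. Eno2, the neuronal enolase, was 54.0 and 6.29 CPM. Of the 4 regulators of phosphofructokinase measured, 4 were higher (median 0.29), and Tigar, a fructose bisphosphatase and the most abundant of them over all cells pooled though not in astrocyte-like cells, was at 7.68 CPM in astrocyte-like and 4.38 CPM in microglia-like cells.

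Slc2a1, the glucose transporter GLUT1, was 200.6 CPM in astrocyte-like and 21.9 CPM in microglia-like cells, and highest in endothelial cell-like cells at 1292 CPM. Slc2a5, a fructose transporter known as a microglial gene, was 10.3 CPM in astrocyte-like and 202 CPM in microglia-like cells. Of 6 glucose transporter genes 3 were above the class median in astrocyte-like cells. Of the 7 lactate and pyruvate carriers 3 were, with Slc16a7, the monocarboxylate transporter MCT2, at 15.2 CPM in astrocyte-like and 64.9 CPM in microglia-like cells. Bsg, basigin, a chaperone of some of these carriers that is itself counted among the 7, was 266.5 CPM in astrocyte-like and 358 CPM in microglia-like cells. It was 11330 CPM in endothelial cell-like cells. Of the 11 genes of pyruvate dehydrogenase and its kinases, 10 were higher in astrocyte-like cells (median 0.88); Pdk2, a kinase that inhibits the complex, was 109.0 CPM in astrocyte-like and 12.1 CPM in microglia-like cells, while of its subunits Pdhb was 123 and 46.9 CPM and Dlat 50.1 and 12.4 CPM.

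Of 11 glycogen genes, 10 were higher in astrocyte-like cells (median 1.77). Pygm and Pygb, the muscle and brain glycogen phosphorylases, were 260.1 and 86.3 CPM in astrocyte-like cells, against 11.7 and 10.1 CPM in microglia-like cells. Pgm1, phosphoglucomutase, was 293 CPM in astrocyte-like and 28.5 CPM in microglia-like cells, and Ppp1r3c, which targets a phosphatase to glycogen, 98.3 and 15.96 CPM. Of 6 pentose phosphate genes 3 were above the class median, and Tkt, transketolase, was 336 and 179.1 CPM in astrocyte-like and microglia-like cells.

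Of 13 hypoxia-inducible factors and targets, 8 were higher in astrocyte-like cells (median 0.18), near the 59.5% of 12800 genes that were (median 0.06). Epas1, the factor HIF-2 alpha, was 118 CPM in astrocyte-like and 3.72 CPM in microglia-like cells, and highest in endothelial cell-like cells at 598 CPM. Vegfa, the growth factor of vessels, was 563.5 CPM in astrocyte-like and 15.96 CPM in microglia-like cells. Bnip3, a mitophagy receptor, was 135 and 18.4 CPM, and highest in mature oligodendrocyte-like cells at 222 CPM. P4ha1, a prolyl hydroxylase of collagen, was 258 CPM in astrocyte-like and 427 CPM in microglia-like cells. Of 13 dissociation genes, 0 were above the class median in astrocyte-like cells (median -3.33), and Jun, the most abundant, was 284 CPM in astrocyte-like and 4477 CPM in microglia-like cells.

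The profiles of the genes were compared over 48 units of 1 class in 1 library. These correlations describe log2(CPM + 10), and units of 1 library share its depth and processing. Hk1, Pfkp, Aldoc and Eno1 ran together, with Pearson r from 0.74 between Hk1 and Aldoc to 0.84 between Hk1 and Pfkp. With these genes Ldhb had r from 0.48 for Pfkp to 0.71 for Aldoc. Ldha and Ldhb had r = -0.39, and Hk2 and Ldhb r = -0.50 (-0.495). Among 3207 genes, the closest to Aldoc were Clu (0.98), Agt (0.97) and Plpp3 (0.97). Closest to Pfkp was Sod3 (0.91), to Eno1 Ttyh3 (0.91), to Ldhb Cnn3 (0.89), to Hk1 Camk2g (0.86), to Aldoa Aurkaip1 (0.71), to Pkm Nadk (0.84) and to Ldha Tagln2 (0.82). For Hk2 it was a gene listed without a symbol (0.84), followed by Rab3il1 (0.82).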

How the data were processed

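Per the labels' protocols, single-cell suspensions of rat hippocampus were made into Chromium 3′ libraries, and per the file headers the authors' deposited matrix was written by Cell Ranger 7.0.0. It holds UMI counts, whole numbers per gene and barcode in the authors' deposited file. Per the submitters' processing notes the build is mm10, a mouse build, while the enzyme genes carry rat Ensembl identifiers; the sources used here name no annotation and no setting for introns or depth matching. The number of unused sample columns was 0.

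Barcodes with at least 500 UMIs, 200 genes and at most 20% mitochondrial UMIs passed (48704), and 3311 barcodes with the highest doublet score of their library were removed, 0.8% per 1000 barcodes; the score counts simulated doublets among a cell's 30 nearest neighbours. Clusters (Leiden, resolution 1.0, 15 neighbours, 30 components of 2000 variable genes without 25 glycolytic genes) gave 30 groups. A cluster was named from markers averaging a log2 ratio of at least 1, leading the next class by 1, with at least 3 markers passing. Counts were summed per class, and per class and library from 20 cells. Background genes had at least 10 CPM in either class, or in any class where 12 were compared. The enzyme genes and the other lists were not held to this limit. Tools were leidenalg 0.10.2, python-igraph 0.11.9, SciPy 1.17.1, NumPy 2.4.6, pandas 2.3.3 and matplotlib 3.10.9 under Python 3.11.15; R 4.3.3 with edgeR 4.0.16 and DESeq2 1.42.0 gave scaling factors only. Ratios and intervals were tested on simulated data.

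The planned edgeR test of irradiated against control samples was not run, since no library is tied to a sample, and no p-value is given. All 9 matched genes are named; from other lists, the gene highest overall and those at least 4-fold apart with at least 50 CPM, and for each enzyme gene its closest genes by correlation. From these lists 1 gene is not reported here, and dissociation genes are given by count and by the most abundant. The enzyme genes and lists were chosen with earlier results of these data known. The naming of Lyz2-high and Cd74-high cells and the removal of library 3 were settled after seeing the data.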

Additional observations from a re-analysis of the deposited data

Results flagged for a closer look

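With 6 libraries per class, a library was singled out when its gap to the nearest other, divided by the whole range, passed Dixon's 95% critical value. Over 36 sets of values (9 genes in 4 classes) 6 passed, and all 6 were library 3; chance gives about 1 in 20. The 9 genes share cells, so the 6 are not independent. The rule was applied to these 9 genes only, so whether they departed more than other genes is not known. In astrocyte-like cells library 3 was high for Aldoc at 6858 CPM (others 4730 to 5432), Pkm at 119.3 CPM (others 59.9 to 74.0), Ldha at 136.9 CPM (others 77.9 to 98.9) and Ldhb at 1467 CPM (others 857 to 993). In T or NK cell-like cells it was high for Ldha at 848.6 CPM (others 403 to 485). In microglia-like cells it was low for Hk2 at 6.085 CPM, from 195 UMIs (others 22.3 to 26.9).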

How the results depend on the processing

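No paired analysis was possible because the barcode suffixes are tied to no sample, so the replicate numbers in the labels mark no column. In all alternatives run, 7 of 9 genes were higher in astrocyte-like than in microglia-like cells, and the direction of each of the 9 genes was kept in all 16 settings. Values below moved by more than their counting interval.

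The median log2 ratio of astrocyte-like over microglia-like cells, 1.785, was 1.868 with a mitochondrial limit of 10%, 1.703 with no limit, 1.711 with doublets kept, 1.655 with TMM-scaled totals, 1.545 with DESeq2 size factors, 1.835 without mitochondrial and ribosomal protein genes, 1.736 as the median within libraries, and 1.714 to 1.848 with 1 library left out. The difference in Ldhb share, 44.977 points, was 44.375 with a 10% limit, 43.995 with doublets kept, 44.326 with cells named by highest marker score, 57.374 as the median within libraries, and 42.334 to 48.859 with 1 library left out. The difference in Hk2 share, -28.871 points, was -31.66 within libraries, and -31.957 to -27.23 with 1 library left out. The difference in Aldoc share was 0.416 points, and 0.346 to 0.455 with 1 library left out.

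The median log2 ratio of Lyz2-high over microglia-like cells, 0.015, was 0.098 with a 10% limit, 0.147 without mitochondrial and ribosomal protein genes, -0.149 as the median within libraries, and 0.001 to 0.082 with 1 library left out; cells named by highest marker score cannot form this class. The pooled sign of Hk1 was kept in 10 and of Ldha in 8 of 15 settings of this pair, so neither has a settled direction pooled. Among single genes over both pairs, 152 values stayed within their counting interval and 127 moved; 0 called values reversed. Levels of rare classes rest on few counts, and the cause of each change was not tested.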
